A study of Mus musculus with 6 samples.

Results

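The 8 genes described here are long noncoding RNAs known from neurons, *Malat1*, *Neat1*, *Meg3*, *Rian*, *Mirg*, *Miat*, *Snhg11* and *Snhg14*, chosen by name from a count table of 53858 genes. All 8 were found in the table and passed the filter on low counts, among 12954 genes tested. The libraries came from spinal cord motor neurons of wild-type (WT) mice whose sciatic nerve had been crushed, and the cells were taken on day 6. Every neuron carried the green dye DiO, given proximal to the injury on day 0. The 3 DiO-only pools lacked the red dye DiI, and the 3 double-labelled pools also carried DiI, given at a distal site on day 2 to mark neurons whose regrown axons had arrived there. A pool held 10 to 15 picked cells, with up to 20 allowed at lysis, and its poly(A) RNA was amplified over 20 PCR cycles. Nothing in the labels ties the pools to different animals, and a p-value here reflects the spread among these 6 samples, which may be technical. The labels also mention 3 batches without tying any library to one, so no within-batch value could be given.

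Long noncoding RNAs are transcribed and often spliced like messenger RNAs but are not known for a protein product. *Malat1* and *Miat* are retained in the nucleus, and *Neat1* is the scaffold of paraspeckles, nuclear bodies built around that RNA. *Meg3*, *Rian* and *Mirg* lie one after another on the same strand of the imprinted Dlk1-Dio3 region, are expressed from the maternal chromosome and host microRNAs and small nucleolar RNAs (snoRNAs), while *Snhg14* runs on the paternal chromosome through snoRNA clusters into the antisense strand of *Ube3a*, the Angelman syndrome gene. *Snhg11* is a host gene of snoRNAs with high expression in neurons.

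The total counts ran from 2997714 to 6563403 per library, so that 3 counts were worth 0.399 to 1.09 CPM (counts relative to the size of the library, TMM-scaled). All 9 motor neuron markers checked, *Chat* among them, had counts. Their summed level ran from 16450 to 33240 CPM in DiO-only and from 21900 to 25340 CPM in double-labelled pools. Other cells were represented too. The 12 oligodendrocyte markers summed to between 285.1 and 578.9 CPM in DiO-only and between 1457 and 4911 CPM in double-labelled pools. The 11 astrocyte markers summed to between 892.6 and 1302 and between 1082 and 2281 CPM, of which *Aldoc* and *S100b* made up most. Of the 10 astrocyte markers tested, 8 were higher and 2 lower in double-labelled pools, with a median log2 fold change of 2.22. The groups did not overlap for 5 of them, all higher, as 5.86% of all tested genes were. Some of these, *Fgfr3* among them, passed the filter only through the double-labelled pools. No marker on any list was at 0 in all libraries. Between 17229 and 22118 genes were detected in DiO-only pools and between 15657 and 16467 in double-labelled pools. In pools of whole cells, fewer cells of a type and less RNA per cell cannot be told apart.

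The label "abundant" held for some of the 8 genes. By raw count *Malat1* ranked between 1 and 3 among all genes in every library, and *Meg3* between 10 and 39. *Snhg11* ranked between 23 and 104, and *Miat* between 96 and 525. *Snhg14* and *Rian* lay lower, at ranks of 324 to 1013 and 771 to 2997. *Mirg* ranked between 4404 and 7507. *Neat1* ranked between 7302 and 14884 and had only 168 counts over the 6 libraries, so the label went against its counts in these poly(A) libraries. Whether the capture of poly(A) RNA lowered the counts of *Neat1* or any other of the 8 genes was not tested. *Snhg11* is annotated as protein_coding in GENCODE M21 and as lncRNA in RefSeq.

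Per kilobase of annotated exon, the order in DiO-only pools was *Malat1* at 5022 ± 2360 CPM per kb (SD, n = 3), *Meg3* at 199.8 ± 30.2, *Snhg11* at 163 ± 53.1, *Miat* at 39.2 ± 7.48, *Snhg14* at 7.31 ± 1.76, *Rian* at 4.31 ± 1.39, *Mirg* at 3.27 ± 1.44 and *Neat1* at 0.191 ± 0.127. *Meg3* and *Snhg11* were within their spread of each other, as were *Snhg14* and *Rian*, and *Rian* and *Mirg*. The double-labelled pools gave the same order, with *Malat1* at 7469 ± 5864 CPM per kb, *Meg3* at 268 ± 23.7, *Snhg11* at 266.1 ± 53.7, *Miat* at 65.5 ± 16.1, *Snhg14* at 9.23 ± 3.48, *Rian* at 5.91 ± 3.46, *Mirg* at 4.21 ± 0.809 and *Neat1* at 0.386 ± 0.312. There too *Meg3* and *Snhg11*, *Snhg14* and *Rian*, and *Rian* and *Mirg* were within their spread of each other. These lengths count all annotated exons, and the transcripts present may be shorter. An opposite-strand row over 453 of the 6983 bases of *Malat1* held 97.6 to 99.0% as many counts, as described below. The *Malat1* value per kb thus need not hold along the whole RNA. Taking out that row's counts and bases left 47.6 to 208.7 CPM per kb over the 6 pools. That range assumes that fragments of the 453 bases fell equally on both strands, which was not tested.

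**Figure D1:**
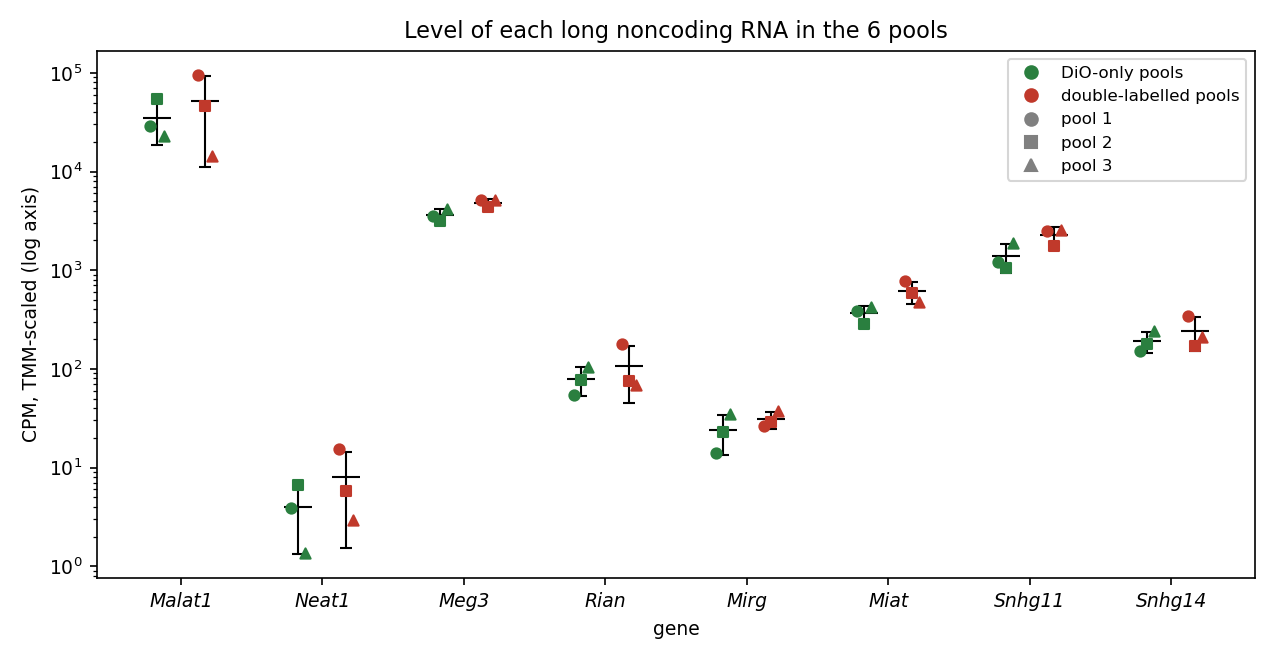
CPM of the 8 genes (log axis) in DiO-only pools (green) and double-labelled pools (red). Circles, squares and triangles are pools 1, 2 and 3, and bars show the mean ± SD of 3 pools. The levels span from 1.36 CPM for *Neat1* to 95740 CPM for *Malat1*, and groups are apart for *Meg3* and *Miat*.

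The 2 groups were compared to ask whether these RNAs differed between injured motor neurons with axons at the distal site and injured motor neurons lacking the distal dye. None of the 8 long noncoding RNAs was called. All 8 log2 fold changes were above 0, with a median of 0.51, where 51.3% of the 12954 tested genes were above 0 and their median was 0.02. Without double-labelled pool 1, 5 of the 8 were above 0. *Miat*, at 1.67-fold, was the single gene of the 8 with an unadjusted p under 0.05 in edgeR, where 3.18% of all tested genes were so and higher and 2.63% so and lower.

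At an adjusted p under 0.05, edgeR's quasi-likelihood test called 0 of 12954 genes (0%), 753 had an unadjusted p under 0.05, and DESeq2 called 75 genes (0.495% of those it tested) with none of the 8 among them. The groups did not overlap for *Miat* and *Meg3*, both higher in double-labelled pools, as 5.86% of all tested genes were. Neither count was set against a test, and the 8 genes share the same libraries.

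**Figure D2:**
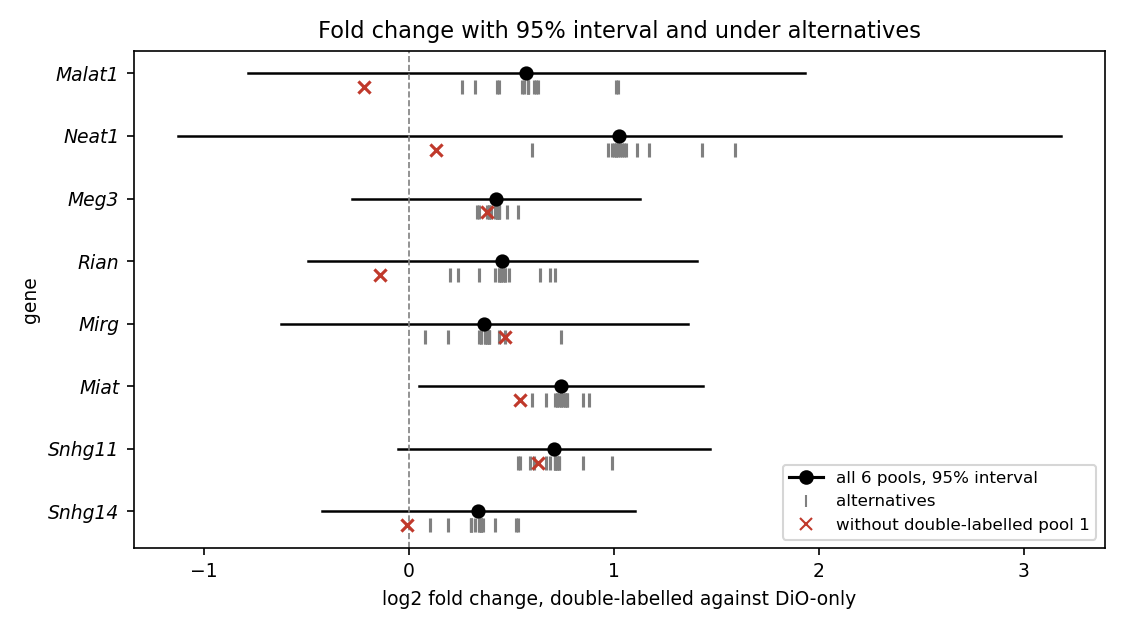
Log2 fold change of each gene, double-labelled against DiO-only pools. Black points and lines are the value from all 6 pools with its 95% interval, grey ticks the alternatives, and red crosses the value without double-labelled pool 1, which is below 0 for *Malat1* (-0.22), *Rian* (-0.14) and *Snhg14* (-0.01).

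*Malat1* (ENSMUSG00000092341; mm10 chr19:5795690-5802672, minus strand) is a single-exon nuclear RNA of 6983 bases that gathers at speckles, the stores of splicing factors. It took 3.31 ± 0.913% of all counts in DiO-only pools (SD, n = 3) and 5.11 ± 3.95% in double-labelled pools. In DiO-only pools 1, 2 and 3 it stood at 28780, 53760 and 22650 CPM. Double-labelled pool 1 was the highest at 95740 CPM, pool 2 stood at 46220 and pool 3 was the lowest of all at 14500. The double-labelled pools thus lay on both sides of all DiO-only pools. The log2 fold change was 0.57 ± 0.62 (SE; edgeR adjusted p = 0.974; 95% interval of the fold 0.580 to 3.81), and it turned to -0.22 without double-labelled pool 1.

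The counts of *Malat1* were matched by a row on the other strand. *Gm37376* (ENSMUSG00000102349; chr19:5801941-5802393, plus strand) is an unclassified 453-base model that lies within the *Malat1* exon, over bases 280 to 732 from its start, or 6.49% of its length. DiO-only pools 1, 2 and 3 held 196699, 159958 and 130107 counts of *Gm37376*, equal to 98.9, 98.6 and 97.9% of those of *Malat1*. Double-labelled pools 1, 2 and 3 held 462903, 126052 and 106492, or 98.6, 99.0 and 97.6%. The share hardly moved between libraries, while the level of *Malat1* moved 6.60-fold between the lowest and the highest library. The *Malat1* row exceeded the *Gm37376* row by 2149, 2226 and 2751 counts in the DiO-only pools and by 6683, 1221 and 2573 in the double-labelled pools. Scaled for library size, these differences were 311, 738 and 469 CPM in DiO-only and 1363, 443 and 342 CPM in double-labelled pools. If fragments of the shared 453 bases fell equally on both strands, these differences are the counts that the rest of *Malat1* received, which was not tested.

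The table itself shows how such rows were filled. Among genes of at least 200 bases wholly inside the exons of a gene with 1000 or more counts, 52 of 59 on the opposite strand had counts, against 1 of 10 on the same strand. Counts per base of the opposite-strand rows had a median of 0.87 times that of their hosts. Rows on opposite strands were thus both filled, while nested rows on the same strand received almost no counts. A row of this table thus cannot tell a transcript from its antisense partner in shared exons.

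The stretch of *Malat1* that lies in this window is shown because it is the only part with wide exact matches in other annotated transcripts. Sequence outside annotated transcripts was not searched. Every 25-base word of *Malat1* was looked up in the GENCODE M21 transcripts of 55450 genes on both strands. All 139 bases in words shared with 10 or more other genes lay inside the 453-base window, none outside, and one word occurred in 1221 other genes. The letters belong to the B1 family of short interspersed repeats, which are scattered through mouse transcripts. They are printed 5′ to 3′ in the sense of *Malat1* (mm10, chr19:5801958-5802116, minus strand, bases 557 to 715 from its start), with the shared bases in capitals.
Malat1 stretch: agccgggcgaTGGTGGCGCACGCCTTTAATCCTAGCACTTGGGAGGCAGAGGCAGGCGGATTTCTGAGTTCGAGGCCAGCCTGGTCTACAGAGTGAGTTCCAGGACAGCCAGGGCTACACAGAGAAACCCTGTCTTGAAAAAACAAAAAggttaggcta
In all, 3077 other genes held at least one of these words. How the submitters' counting treated reads that map to several places is not given in the sources used here, and the part of such reads in the *Malat1* counts was not tested.

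**Figure D3:**
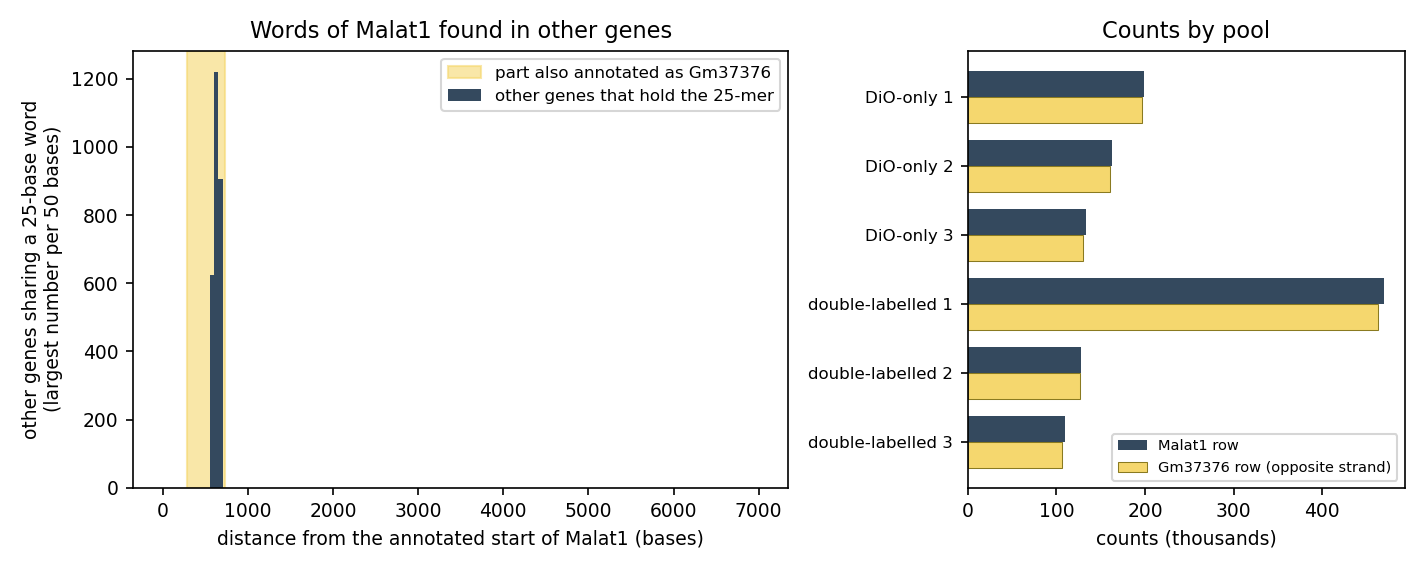
Left, the largest number of other genes that share a 25-base word of *Malat1* in each 50 bases, by distance from its annotated start in bases, with the *Gm37376* window shaded. Right, counts (axis in units of 1000) of the *Malat1* row (dark) and the opposite-strand *Gm37376* row (yellow) in the 6 pools, where the yellow bar reaches 97.6 to 99.0% of the dark bar.

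Genes whose pattern over the 6 libraries was closest to that of *Malat1* were *Polr2j* (a subunit of RNA polymerase II), *Mrpl27* (a mitochondrial ribosomal protein) and *Uqcc3* (an assembly factor of respiratory complex III). Likeness was the root-mean-square difference of log2 CPM centred on each gene's mean, over 6 libraries and 9928 genes of at least 5 CPM. It was 0.178, 0.194 and 0.195 on the log2 scale for these 3 genes, against a median of 1.04 for all. The 50 nearest genes had a median annotated exon length of 2660 bases, against 4794 bases over all genes compared. The same median was between 5738 and 6756 bases for the 50 nearest genes of *Meg3*, *Rian*, *Mirg*, *Miat*, *Snhg11* and *Snhg14*, and 3138 bases for those of *Neat1*. Of the 50 genes nearest to *Malat1*, 18% held a word of the printed stretch on either strand, and 15.1% of all compared genes did. These lengths and shares were looked at after the patterns were seen and are descriptions of 6 libraries.

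*Neat1* (ENSMUSG00000092274; chr19:5824708-5845478, minus strand), the architectural RNA of paraspeckles, lies next to *Malat1* and spans 20771 bases. It had 27, 20 and 8 counts in DiO-only pools 1, 2 and 3, and 75, 16 and 22 in the double-labelled pools. These counts are 3.91, 6.63 and 1.36 CPM against 15.3, 5.81 and 2.92 CPM. Double-labelled pool 1 was again the highest, and the other double-labelled pools lay within the DiO-only range. The log2 fold change was 1.03 ± 0.98 (SE; edgeR adjusted p = 0.970), with a 95% interval of the fold from 0.458 to 9.06. Leaving out 1 pool moved it from 0.13 (without double-labelled pool 1) to 1.59 (without DiO-only pool 2). The paired neighbours resembled each other more than most genes did, with a root-mean-square difference of 0.467 and 1.58% of compared genes closer to *Malat1*.

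Proteins of the nuclear bodies that *Neat1* and *Malat1* belong to were compared as well. Of 24 paraspeckle proteins, all tested, 15 were higher and 9 lower in double-labelled pools, with a median log2 fold change of 0.16 and 0 called. The tally turned to 10 higher and 14 lower without double-labelled pool 1, and to 9 and 15 with limma voom. *Nono*, a core paraspeckle protein that binds *Neat1*, stood at 52.4, 53.0 and 58.0 CPM in DiO-only and at 21, 34.1 and 15.3 CPM in double-labelled pools. All double-labelled pools lay below all DiO-only pools, as 7.07% of tested genes did, and the log2 fold change was -1.23 ± 0.40 (SE; edgeR adjusted p = 0.675). Its partner *Sfpq* overlapped between groups, at 42.2 ± 8.31 and 36.2 ± 8.45 CPM (SD, n = 3). Of 30 nuclear speckle and SR splicing proteins, 25 were higher and 5 lower, with a median of 0.20 and 0 called. Without any 1 pool between 20 and 24 of these proteins were higher. Of the 30, 1 was higher at an unadjusted p under 0.05 in edgeR, as 3.18% of all tested genes were. The gene under 0.05, the RNA helicase *Ddx17*, stood at 103.7 ± 7.61 and 173 ± 64.7 CPM (log2 fold change 0.74, edgeR adjusted p = 0.858).

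*Meg3* (ENSMUSG00000021268; chr12:109541001-109571726, plus strand) opens the maternally expressed RNAs of the Dlk1-Dio3 region. It stood at 3507, 3130 and 4205 CPM in DiO-only pools and at 5089, 4353 and 5102 CPM in double-labelled pools. The lowest double-labelled pool lay just above the highest DiO-only pool. The log2 fold change was 0.42 ± 0.32 (SE; edgeR adjusted p = 0.957), and the interval of the fold, 0.825 to 2.18, included 1. It stayed between 0.33 and 0.53 when any pool was left out. Oligodendrocyte markers were higher in the same pools (12 of 12 tested markers above 0, against 51.3% of all tested genes). Some of the 12 passed the filter only through the double-labelled pools, such as *Sox10*, at 0.14, 0 and 0.51 CPM in DiO-only pools. The part of oligodendrocyte RNA in the *Meg3* result was not tested.

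*Meg3* was also the steadiest of the 8 genes. Its log2 level varied by 0.18 (SD) within groups, against 0.32 for *Miat* and 1.07 for *Malat1* and *Neat1*. It varied least of the 28 genes, itself included, within 2-fold of its mean level, a comparison made after the values were seen. Its highest library stood 1.63-fold above its lowest, against 6.60-fold for *Malat1* and 2.26-fold to 3.31-fold for *Rian*, *Mirg*, *Miat*, *Snhg11* and *Snhg14*. Its closest genes by pattern were *Arfgap1*, *Sirpa* and *Lgals8*, at root-mean-square differences of 0.0626, 0.0656 and 0.0795.

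The *Meg3* start is shown because a cyclic AMP response element in it is textbook knowledge for this promoter. The letters TGACGTCA were searched on both strands of the RefSeq promoters of GRCm38.p6, 250 bases before to 50 after each start. They occur in 1.79% of 32851 promoters, and among the 7 genes with an entry, that is all but *Neat1*, the first *Meg3* promoter alone held them. The same 300 bases (chr12:109540746-109541045, plus strand) also hold TATAAA, as 13.6% of promoters do. The match is in capitals.
Meg3 promoter: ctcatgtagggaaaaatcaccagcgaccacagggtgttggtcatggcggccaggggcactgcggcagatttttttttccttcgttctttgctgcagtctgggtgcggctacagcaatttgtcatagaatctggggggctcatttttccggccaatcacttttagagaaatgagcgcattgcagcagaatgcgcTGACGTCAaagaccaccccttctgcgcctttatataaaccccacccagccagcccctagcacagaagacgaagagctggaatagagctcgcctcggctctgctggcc
The 5-letter core TGACG, which the full element contains and 20.8% of promoters hold, was found elsewhere among the 7 genes with an entry in *Malat1*, 3 times. The entries of *Snhg14*, *Mirg* and *Miat* do not cover the starts of the gene models given here, so the search does not describe those starts.

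*Rian* (ENSMUSG00000097451; chr12:109603940-109661716, plus strand), the host of snoRNAs downstream of *Meg3*, stood at 54.6, 76.2 and 105 CPM in DiO-only pools. In double-labelled pools it stood at 180.4, 74.8 and 67.9 CPM. Pool 1 was above all others and the other double-labelled pools lay within the DiO-only range. The log2 fold change was 0.46 ± 0.43 (SE; edgeR adjusted p = 0.970) and -0.14 without double-labelled pool 1.

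*Mirg* (ENSMUSG00000097391; chr12:109729764-109749460, plus strand), the microRNA-containing transcript at the end of the series, stood at 13.9, 22.9 and 34.8 CPM in DiO-only pools. In double-labelled pools it stood at 26.1, 28.7 and 37.4 CPM, a range that overlapped. Its log2 fold change was 0.37 ± 0.45 (SE; edgeR adjusted p = 0.978). It was 0.08 without DiO-only pool 1, 0.19 without double-labelled pool 3 and 0.74 without DiO-only pool 3. Unlike *Rian*, its highest pool was double-labelled pool 3.

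The 3 RNAs of this region are often described as parts of a long unit of transcription, so their counts were set against each other within libraries. For every 100 counts of *Meg3* there were 1.56, 2.44 and 2.50 counts of *Rian* in DiO-only pools and 3.54, 1.72 and 1.33 in double-labelled pools. The means were 2.16 ± 0.527 in DiO-only and 2.20 ± 1.18 in double-labelled pools (SD, n = 3). Double-labelled pool 1 lay above and pool 3 below all DiO-only pools, so the 2 means do not show that the groups were alike. *Mirg* ran from 0.396 to 0.827 per 100 counts of *Meg3*. Per 100 counts of *Rian* there were 25.5, 30.0 and 33.1 counts of *Mirg* in DiO-only and 14.5, 38.4 and 55.0 in double-labelled pools. The double-labelled values lay on both sides of the DiO-only values. By pattern *Meg3* and *Mirg* were 0.355 apart (root-mean-square difference), *Meg3* and *Rian* 0.477, and *Rian* and *Mirg* 0.583.

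**Figure D4:**
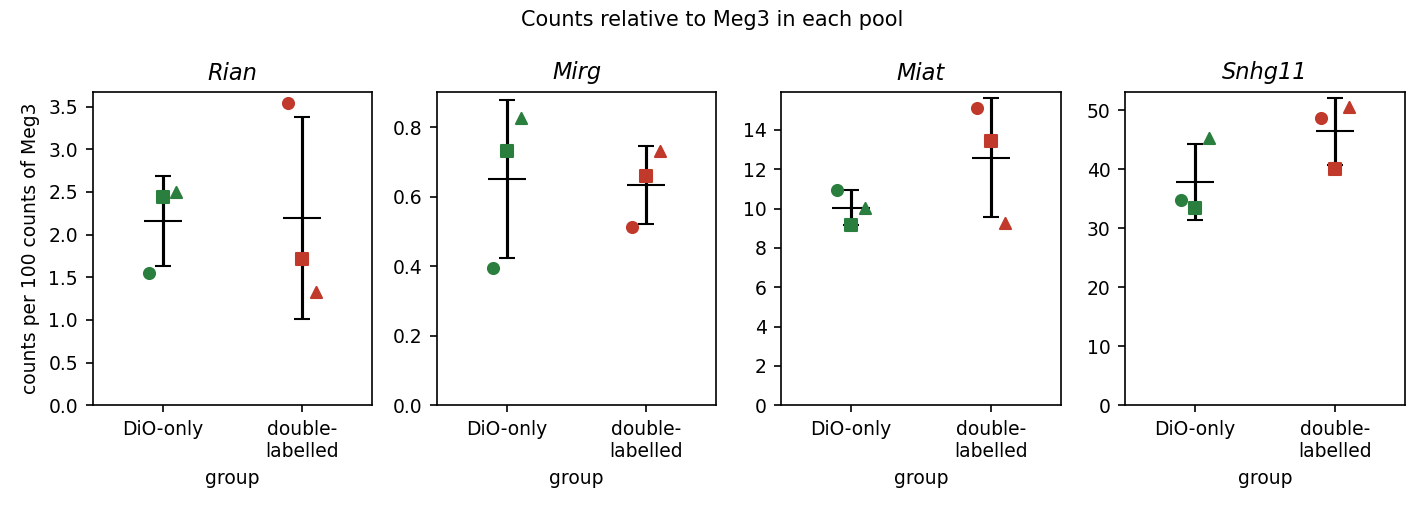
Counts of *Rian*, *Mirg*, *Miat* and *Snhg11* per 100 counts of *Meg3* in each pool (circle, square and triangle for pools 1, 2 and 3), with the mean ± SD of 3 pools. In the *Rian* panel double-labelled pool 1 stands highest at 3.54, and every panel overlaps between groups.

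Inside these 3 genes RefSeq places 35 mature microRNAs, 3 in *Meg3*, 6 in *Rian* and 26 in *Mirg*. Same-strand nested rows mostly had no count in this table, and mature microRNAs have no poly(A) tail, so these rows do not measure the microRNAs. The 2 microRNA genes of the table in *Meg3* had 0 counts, the 4 in *Rian* 14 and the 15 in *Mirg* 13 over all libraries. An example from each of *Meg3* and *Rian*, and the only pair of the 35 with a common seed (bases 2 to 8, in capitals), both from *Mirg*, show what the hosts carry.
mmu-miR-770-5p: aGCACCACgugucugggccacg
mmu-miR-370-3p: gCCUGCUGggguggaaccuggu
mmu-miR-453: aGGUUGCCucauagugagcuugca
mmu-miR-496a-5p: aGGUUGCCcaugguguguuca

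Of the other genes of the Dlk1-Dio3 region 8 were tested, 3 higher and 5 lower, with a median log2 fold change of -0.06 and 0 called. Leaving out any 1 pool turned this tally, for example to 6 higher and 2 lower without double-labelled pool 3. *Rtl1*, a paternally expressed gene opposite the maternal RNAs, stood at 20.4 ± 7.83 and 25.8 ± 7.17 CPM (SD, n = 3), overlapping. *Dlk1*, a Notch ligand relative expressed from the paternal copy, had 35 counts in all, too few for the test. *Begain*, of a postsynaptic density protein, stood at 17.2, 11.3 and 9.38 against 16.7, 53.7 and 48.4 CPM (log2 fold change 1.64, edgeR adjusted p = 0.663). The overlap came from double-labelled pool 1. *B830012L14Rik*, the 1 tested gene of this list without overlap, was lower, at 20.6, 25.9 and 44.5 against 13.7, 20.3 and 19.8 CPM. Its log2 fold change was -0.76 ± 0.46 (SE; edgeR adjusted p = 0.929). *Dio3* and *Dio3os*, the thyroid hormone deiodinase and its antisense RNA at the end of the region, had 0 counts in all libraries.

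*Miat* (ENSMUSG00000097767; chr5:112213228-112229395, minus strand), also called Gomafu, is a neuronal nuclear RNA with repeats that bind splicing factors. It stood at 384.3, 286.7 and 421.2 CPM in DiO-only pools. The double-labelled pools stood at 768.3, 585 and 471.9 CPM. All 3 lay above the highest DiO-only pool, with pool 3 only a little above it. *Miat* had the smallest p of the 8 genes, with a log2 fold change of 0.74 ± 0.32 (SE; unadjusted p = 0.0379, edgeR adjusted p = 0.796) and an interval of the fold from 1.03 to 2.70. It ranked 614 by p among the 12954 genes. Leaving out each pool gave values from 0.54 to 0.88, and the adjusted p over its alternatives ran from 0.397 to 1.00. Per 100 counts of *Meg3* there were 11, 9.16 and 10 counts of *Miat* in DiO-only and 15.1, 13.4 and 9.25 in double-labelled pools, which overlapped.

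*Gm26953*, on the other strand of *Miat* with 2260 exonic bases in common, had only 1.14 to 7.85% of its counts and a log2 fold change of 0.10 (edgeR adjusted p = 0.992). Counts of that row were thus few in every pool, and in the shared exons they cannot be assigned to a strand. All 4 splicing factors listed as partners of *Miat* were above 0, with a median of 0.54 and 0 called. *Qk*, the quaking RNA-binding protein, stood at 22.4, 25.5 and 16.5 CPM in DiO-only and 63.2, 30.9 and 58.4 CPM in double-labelled pools (log2 fold change 1.25 ± 0.42, SE; edgeR adjusted p = 0.675), with no overlap. *Qk* is also strongly expressed in oligodendrocytes and astrocytes, whose markers were mostly higher in the same pools. Above 0 were 12 of 12 and 8 of 10 tested markers, against 51.3% of all tested genes. Some of these markers passed the filter only through the double-labelled pools, and the part of these cells in the *Qk* result was not tested. *Srsf1*, an SR splicing factor that is also on the speckle list, overlapped between groups at 45.7 ± 11.7 and 77.9 ± 38.8 CPM (SD, n = 3). The genes closest to *Miat* by pattern were *Slc45a4*, *Plod1* and *Tubgcp3*, at 0.125, 0.126 and 0.143.

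*Snhg11* (ENSMUSG00000044349; chr2:158375638-158386145, plus strand) is named for the snoRNAs in its introns. It stood at 1221, 1044 and 1902 CPM in DiO-only pools and at 2481, 1742 and 2579 CPM in double-labelled pools. Double-labelled pool 2 fell below DiO-only pool 3, and the other double-labelled pools were above all DiO-only pools. The log2 fold change was 0.71 ± 0.35 (SE; edgeR adjusted p = 0.872), the interval of the fold ran from 0.963 to 2.76, and no pool left out took the value outside 0.54 to 0.99. Of its longest transcript, 19.1% of bases lay in 25-base words found in another gene, the highest share of the 8, and its counts are uncertain where the counting could split or drop such reads. Its pattern was close to that of *Meg3*, at a root-mean-square difference of 0.229 with 1.99% of compared genes closer to *Meg3*, and closest to *Zfp398*, *Ralgapa1* and *Pcmtd2* at 0.0743, 0.0849 and 0.102. Per 100 counts of *Meg3* there were 37.8 ± 6.47 counts of *Snhg11* in DiO-only and 46.4 ± 5.63 in double-labelled pools, with overlap.

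Of the other snoRNA host genes 16 were tested, 7 higher and 9 lower, with a median log2 fold change of -0.09 and 0 called. Single pools moved this tally both ways, to 12 higher and 5 lower without DiO-only pool 2 and to 3 higher and 13 lower without double-labelled pool 2. *Snhg20*, the gene of this list with the smallest p, stood at 26.2, 30.2 and 23.7 CPM in DiO-only and 74.4, 74.1 and 55.6 CPM in double-labelled pools. All double-labelled pools were above every DiO-only pool (log2 fold change 1.35 ± 0.35, SE; edgeR adjusted p = 0.486). *Gas5*, a growth-arrest host gene, overlapped at 57.5 ± 21.3 and 47.8 ± 16.9 CPM (SD, n = 3).

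*Snhg14* (ENSMUSG00000100826; chr7:59307924-59975759, minus strand) spans 667836 bases of the Prader-Willi and Angelman region in GENCODE M21 and holds 208 annotated snoRNA genes, of which 18 had any count. It stood at 151.6, 179.3 and 241.1 CPM in DiO-only pools. Double-labelled pool 1 was the highest at 343.1 CPM, while pools 2 and 3, at 169.2 and 210.5 CPM, lay within the DiO-only range. The log2 fold change was 0.34 ± 0.35 (SE; edgeR adjusted p = 0.970) and -0.01 without double-labelled pool 1. Its pattern was nearest among the 8 to that of *Rian*, at a root-mean-square difference of 0.224 with 0.121% of compared genes closer to *Rian*, and nearest of all to *Btaf1*, *Angel2* and *Pdcl* at 0.0898, 0.0931 and 0.117.

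*Ube3a*, an E3 ubiquitin ligase gene that *Snhg14* is known to silence on the paternal chromosome in neurons, overlaps it on the other strand by 1803 exonic bases. *Ube3a* stood at 283.9, 396.5 and 277.9 CPM in DiO-only pools and at 424.3, 395.1 and 467.6 CPM in double-labelled pools (log2 fold change 0.43 ± 0.29, SE; edgeR adjusted p = 0.950). Double-labelled pool 2 fell just below the highest DiO-only pool. There were 53.4, 45.2 and 86.8 counts of *Snhg14* per 100 of *Ube3a* in DiO-only and 80.9, 42.8 and 45.0 in double-labelled pools, a ratio that did not separate the groups. In the shared exons the strands cannot be told apart.

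Within the span of *Snhg14* but outside its exons lie further models that GENCODE M21 leaves unclassified. *A230103L15Rik* and *Gm44831* lie on the same strand as *Snhg14*, and *Gm44829* on the opposite strand. Whether they are parts of the *Snhg14* transcript was not tested. *A230103L15Rik* stood at 41.1, 43.8 and 58.0 CPM in DiO-only and at 91.5, 114.8 and 169.4 CPM in double-labelled pools (log2 fold change 1.40 ± 0.35, SE; edgeR adjusted p = 0.478). All double-labelled pools were above all DiO-only pools, which was not so for *Snhg14* itself. *Gm44829* also did not overlap, at 3.46 ± 1.81 and 18.5 ± 10.3 CPM (SD, n = 3; edgeR adjusted p = 0.648), whereas *Gm44831* did. The difference between these rows and *Snhg14* was not tested. Among 10 other tested genes of the region 6 were higher and 4 lower, with a median log2 fold change of 0.39 and 0 called. *Ndn* was lower, at 703.1 ± 197 and 434.5 ± 76.3 CPM with overlap (log2 fold change -0.69, edgeR adjusted p = 0.87). *Gabra5*, a GABA-A receptor subunit gene, stood at 56.2 ± 13.2 and 96.6 ± 28.3 CPM without overlap (log2 fold change 0.78, edgeR adjusted p = 0.851), and *Snrpn*, the imprinted splicing protein gene upstream of *Snhg14*, at 215.1 ± 120 and 168.9 ± 87.6 CPM with overlap.

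Seen by library, the 8 genes fell into different patterns. In double-labelled pool 1, *Malat1* and *Neat1* were 1.40 and 1.63 above their own means on the log2 scale, and *Rian* was 1.07 above. In double-labelled pool 3, *Malat1* was 1.32 below its mean (a deviation of -1.32), while *Mirg* and *Snhg11* were 0.52 and 0.57 above. DiO-only pools 1 and 2 had all of *Meg3*, *Rian*, *Mirg*, *Miat*, *Snhg11* and *Snhg14* below their means. The 7 genes without *Malat1* took 0.382 to 0.780% of counts in DiO-only and 0.639 to 0.971% in double-labelled pools, which overlapped.

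**Figure D5:**
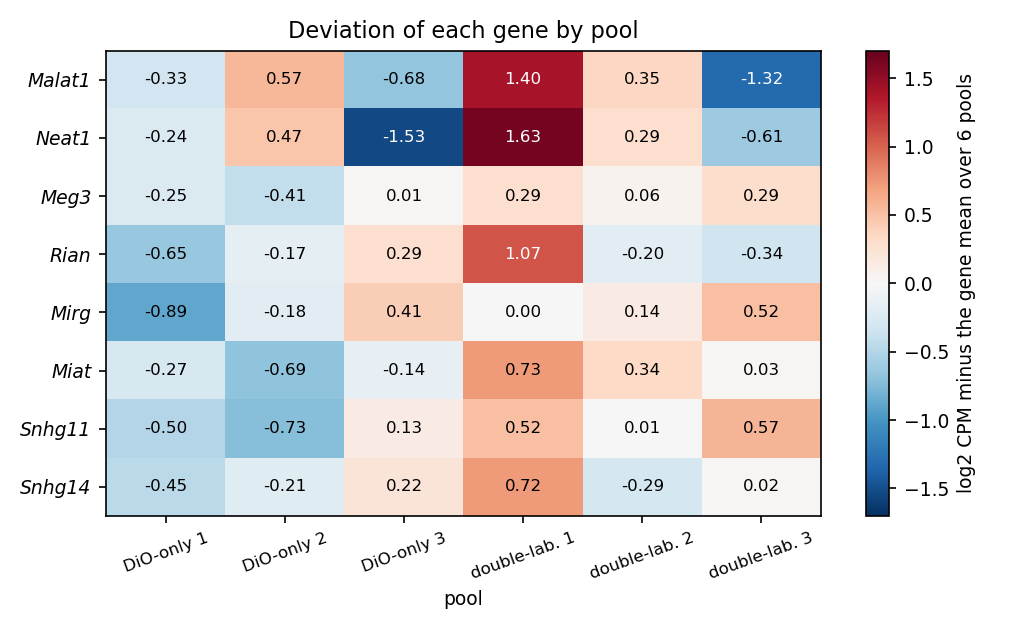
Deviation of log2 CPM from each gene's mean over the 6 pools, red above and blue below, with pools in columns and genes in rows. *Malat1* and *Neat1* move together in double-labelled pool 1 (1.40 and 1.63), and *Meg3* keeps within -0.41 and 0.29.

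Other known long noncoding RNAs were mostly above 0 as well. Of 17 tested, 15 were higher and 2 lower, with a median log2 fold change of 0.51 and 0 called, and 11 were higher and 6 lower without double-labelled pool 3. *Firre*, a nuclear RNA, stood at 16.8, 14.2 and 20.5 CPM in DiO-only and at 50.6, 39.6 and 41.0 CPM in double-labelled pools, with no overlap (log2 fold change 1.34 ± 0.39, SE; edgeR adjusted p = 0.617). *Mir124a-1hg*, the host of a neuronal microRNA, stood at 36.3 ± 9.23 and 64.6 ± 17.1 CPM (SD, n = 3; edgeR adjusted p = 0.836). *Cerox1*, which passed the filter only through the group where it is high, had 2.46 CPM in DiO-only pool 1 and 0 counts in DiO-only pools 2 and 3, and stood at 32.4, 9.44 and 9.71 CPM in double-labelled pools (edgeR adjusted p = 0.617). *Xist* had 0 counts in every library.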

How the data were processed

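RNA was measured in 6 pools, 3 DiO-only and 3 double-labelled. The deposited values are raw whole-number read counts per gene. The submitters' processing notes name FastQC, HISAT2, HTSeq and the build mm10. Not given in the sources used here are versions, annotation, strand setting and how multiply mapping reads were handled. The table and the 6 single-library files held the same counts. All 53858 identifiers matched GENCODE M21 (GRCm38, the same assembly as mm10), and 25345 genes had 0 counts.

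Genes were filtered with filterByExpr by group, leaving 12954 with 99.2% of counts, scaled with TMM and compared with the robust quasi-likelihood test of edgeR 4.0.16 in R 4.3.3, two-sided, Benjamini-Hochberg adjusted over all of them, with 0.05 as the threshold. The common BCV (biological coefficient of variation) was 0.587. SE was the size of the log2 fold change over the root of F, and 95% intervals from the test's t distribution. Patterns used log2 CPM with a prior count of 2. Sequences were taken from GENCODE M21 transcripts and RefSeq. The fit was also run on simulated counts with known changes. The share of those changes that it called is not reported here, so the size of change it could call is not given.

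The 8 genes and all lists were chosen with earlier results of these data known. Named besides them were overlapping genes with 50 or more counts, up to 3 genes of smallest p per list, *Ube3a*, *Snrpn*, *Dlk1*, *Rtl1*, *Sfpq*, *Nono*, *Xist* and *Gas5*, and the 3 most alike genes. Not every such gene is printed, and *Dio3* and *Dio3os* were named after their values were seen. Alternatives were other scalings and filters, DESeq2 1.42.0, limma 3.58.1 voom with quality weights, a replicate block, thinning, other denominators and leaving out each pool. A fit without *Malat1* and *Gm37376* was added after seeing the data. Counts are PCR reads without molecular identifiers, and the number of pools limits the precision. Figures were drawn with matplotlib 3.10.9.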

Additional observations from a re-analysis of the deposited data

How the results depend on the processing

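No alternative called any of the 8 genes. Leaving out 1 pool gave log2 fold changes from -0.22 to 1.02 for *Malat1*, from -0.14 to 0.71 for *Rian* and from -0.01 to 0.53 for *Snhg14*, in each case lowest and below 0 without double-labelled pool 1, and between 5 and 8 of the 8 genes above 0. In the other runs that gave fold changes, those tested were all above 0, 8 genes in each, and 7 in the run without *Malat1* and *Gm37376*. Over all genes, edgeR called 79 without a filter on low counts (43 higher, 36 lower), DESeq2 75 (39 higher, 36 lower) and edgeR with the replicate number as a block 23 (12 higher, 11 lower), against 0. The first and second of these, over 28513 and 15139 genes tested, each called 1 of the other known long noncoding RNAs, *Cerox1*, against 0, and the cause was not tested. The block moved no call of the 8 genes, with smallest adjusted p of 0.332 for *Snhg11* and 0.397 for *Miat* in edgeR. Same-numbered pools had correlations of their deviations of 0.0742, 0.228 and 0.203, so the numbers were not taken as pairs, although every pool correlated best with its own number, a hint from the data and not the design. Whether the numbers mark the 3 batches that the labels mention is not given in the labels. *Neat1* had the fewest counts of the 8 genes, 168, and its log2 level varied within groups by 1.07 (SD), as that of *Malat1* did. Among the 3764 genes within 2-fold of the mean level of *Neat1*, 49.0% varied less than it did. The part of depth in the wide interval of *Neat1* was not tested.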
